A study of Komagataella phaffii with 13 samples.

Results

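In the phytase-producing yeast P. pastoris (Komagataella phaffii) GS115, 153 annotated genes stayed within about 2-fold between glycerol growth and 2 h of the glycerol-methanol feed. Once methanol was fed alone, these genes were at least 2-fold higher by their median. They were drawn from 5439 identifiers in the deposited table, of which 5040 are annotated genes, 5032 of these that reached 1 FPKM on average (fragments per kilobase of transcript, scaled to library size). Members were chosen by their FPKM in all 13 libraries. On the log2(FPKM + 1) scale, a member had the glycerol-methanol library within 1 of the yeast cell culture and of the glycerol feed. Its median over the methanol libraries had to lie at least 1 above each of these 3 libraries, and this difference from the highest of the 3 is called the step here. The 128 genes that the study discussed in its 4 supplementary gene tables, and 2 further genes, were left out, so the members are the genes of this pattern outside those tables. Since these values chose the members, the steps are described without a test.

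The study sequenced RNA of 13 samples of 1 high-cell-density fed-batch fermentation. B_10 was taken from the yeast cell culture after 10 h, G_3 from the following glycerol feed after 3 h and GM_2 from the mixed glycerol-methanol feed after 2 h. Methanol induction gave 10 samples at intervals of 12 h, M_12 to M_120. All samples came from a methanol-utilising (Mut+) strain that secretes an Aspergillus niger phytase, encoded by PhyA and driven by the AOX1 promoter, so no sample lacks the transgene. The label of B_10 names a bench-scale batch instead of the large fermenter, the strain number in the labels climbs from one methanol sample to the next, and the RNA extraction they describe is that of a retina; all samples were taken as GS115, as the paper states. Each of the 3 earlier conditions has 1 library, and those of methanol induction were drawn in turn from 1 culture, so the spread given below is a spread over time and libraries. GM_2 was taken 2 h after methanol was first added and M_12 is the first sample with methanol alone, so the removal of glycerol and the time since the first methanol cannot be told apart. FPKM are relative to the other genes of a library, and more transcripts of a member per cell cannot be told apart from more cells that carry them.

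As background, P. pastoris is a methylotrophic yeast that can grow on methanol as its only carbon source. It oxidises methanol to formaldehyde with alcohol oxidase in peroxisomes, which then multiply, and it fixes part of the formaldehyde with dihydroxyacetone synthase. Glycerol represses alcohol oxidase and other genes of methanol use, and a mixed feed is a common bridge between growth on glycerol and production on methanol. No source used here gives a name or product for any of the 153 members, so they are described by identifier, level, position and time course, and no role is given to them.

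The depth recovered from the low FPKM values ranged from 23453434 fragments on annotated genes in M_96 to 42621924 in B_10. The member with the fewest fragments in any library had 88, so no member rests on a few reads. The members made up 0.658% of all FPKM in B_10, 0.808% in G_3 and 0.826% in GM_2, against 2.55 to 2.93% in the methanol libraries. The 20 most abundant genes of the series held 8.06% of the FPKM in B_10, 10.8% in GM_2 and 17.3 to 21.4% during methanol induction.

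The median member was at 25 FPKM in B_10, 29.3 FPKM in G_3 and 28.8 FPKM in GM_2, and its methanol median was 98.6 FPKM. The steps had a median of 1.34 on the log2 scale, with quartiles of 1.12 and 1.74 and a range of 1.00 to 3.28, which as ratios of FPKM ran from 2.02 to 9.93-fold. A step of at least 1.5 was seen in 56 members, of at least 2 in 23 and of at least 3 in 3. Most steps thus lay close to the limit of the rule, and a short upper tail of genes was far above it. Of all 5100 genes tested, those with a mean of at least 1 FPKM, 4.92% had a step of at least 1, which the rule used and from which nothing is read.

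In many members each single library showed the difference. In 70 of the 153, all 10 methanol libraries lay at least 1 above each of the 3 earlier libraries, which holds for 2.43% of all genes tested. In 148 the lowest methanol library was above the highest of the 3 earlier ones, against 20.3% of all genes tested. Both shares follow in part from the rule and are given as a description. The median step in a single methanol library was 1.37 in M_12, lowest in M_60 at 1.22 and highest in M_96 at 1.53.

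**Figure D1:**
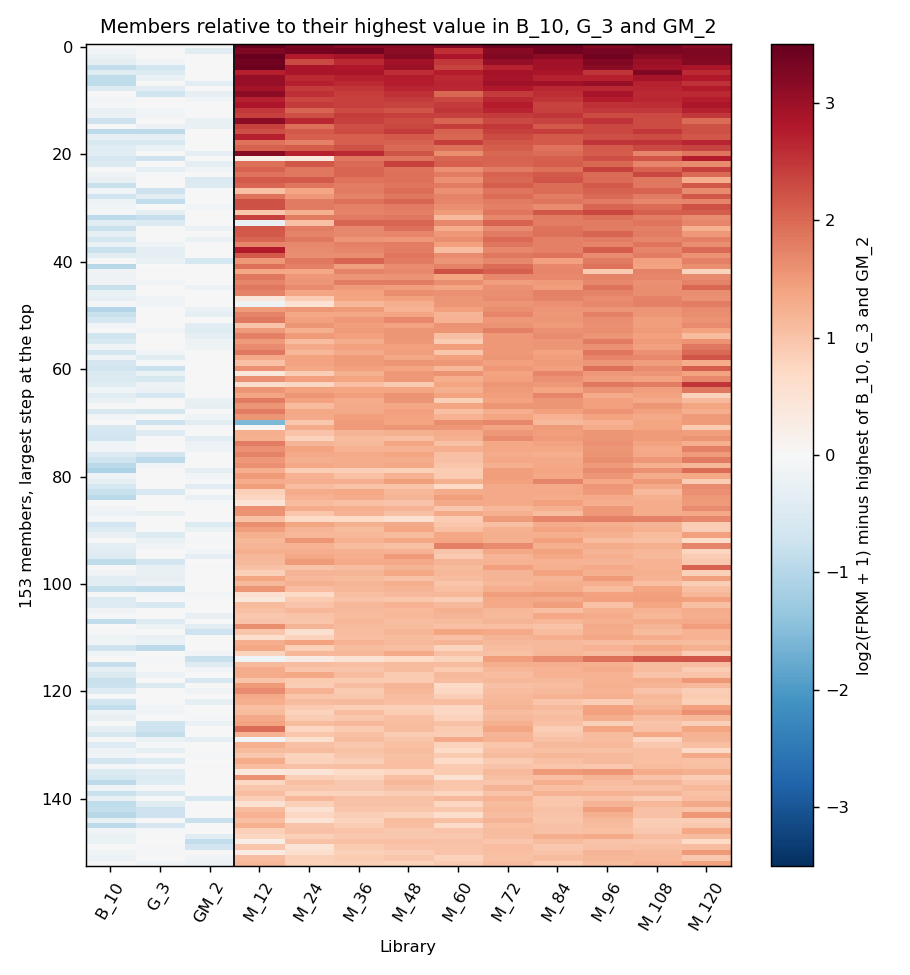
Heat map of the 153 members (vertical axis, ordered from the largest step at the top) in the 13 libraries (horizontal axis); colour is log2(FPKM + 1) minus the highest of B_10, G_3 and GM_2, with red higher and blue lower. The 10 methanol columns are red for nearly all members, and a few members are still pale or blue in M_12.

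Before pure methanol, GM_2 was within 1 of B_10 and of G_3 in each member, as the rule required. GM_2 was above both B_10 and G_3 in 80 members, below both in 28 and between them in 45. The rule used these values and the same counts were not made over all genes, so nothing is read from them. The median difference of GM_2 from G_3 was 0.06 on the log2 scale and that from B_10 was 0.25, while over all genes tested the medians were 0.03 and 0.04. G_3 was at least 1 above B_10 in 2 members (1.31%), against 2.47% of all genes tested, and at least 1 below it in none.

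The 10 members with the largest steps stood 6.23 to 9.93-fold above the highest earlier library, in FPKM. Beyond the first few genes, the identifiers in the following paragraphs were picked after their values were seen, because identifiers are the only names these genes have. PAS_chr2-2_0177 had the largest step, and it was also among the members with the highest levels. It stood at 212 FPKM in B_10, 202 FPKM in G_3 and 205 FPKM in GM_2, then at 1894 to 2459 FPKM in methanol induction with a median of 2068 FPKM. The 3 earlier libraries were nearly level and the lowest methanol library was far above them, and the step was 3.28 on the log2 scale with an SD over the methanol libraries of 0.13.

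PAS_chr3_0026 followed with a step of 3.27. It had 30.2 FPKM in B_10, 32.4 FPKM in G_3 and 24.6 FPKM in GM_2, and 194 to 348 FPKM in methanol induction with a median of 322 FPKM. Its lowest methanol library, M_60, stood apart from the other 9, which held at least 295 FPKM. PAS_chr3_0336 went from 34.7 FPKM in B_10, 40.3 FPKM in G_3 and 41.1 FPKM in GM_2 to between 288 and 477 FPKM, a step of 3.18. M_12 was the highest library of this gene and M_24 the lowest, and no methanol library came near the earlier 3.

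PAS_chr4_0347 had 22.6, 26.4 and 28.4 FPKM in B_10, G_3 and GM_2 and 145 to 304 FPKM in methanol induction, a step of 2.98. PAS_chr3_0326 had 6.42, 7.69 and 12.5 FPKM in these libraries and 68.7 to 145 FPKM afterwards, a step of 2.90. In both genes M_12 was the highest methanol library; M_24 was the lowest in the first gene and M_60 in the second. PAS_chr1-3_0240 differed from them in having its highest value late, with 399 to 668 FPKM in methanol induction and the maximum in M_108, against 51.6, 50 and 69.7 FPKM before.

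The remaining 4 of the 10 largest steps were those of PAS_chr3_0866 (2.73), PAS_chr4_0009 (2.73), PAS_chr1-4_0459 (2.65) and PAS_chr3_0327 (2.58). PAS_chr3_0866 had 7.03, 11.7 and 13.8 FPKM in B_10, G_3 and GM_2, and 88.9 to 122 FPKM in methanol induction. PAS_chr1-4_0459 had 28.3, 29.6 and 38.9 FPKM in the earlier libraries and 216 to 298 FPKM later. None of the 10 methanol libraries overlapped with the 3 earlier libraries in any of these 10 genes. The genes were chosen for their large steps, so this follows largely from the choice and is a description.

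**Figure D2:**
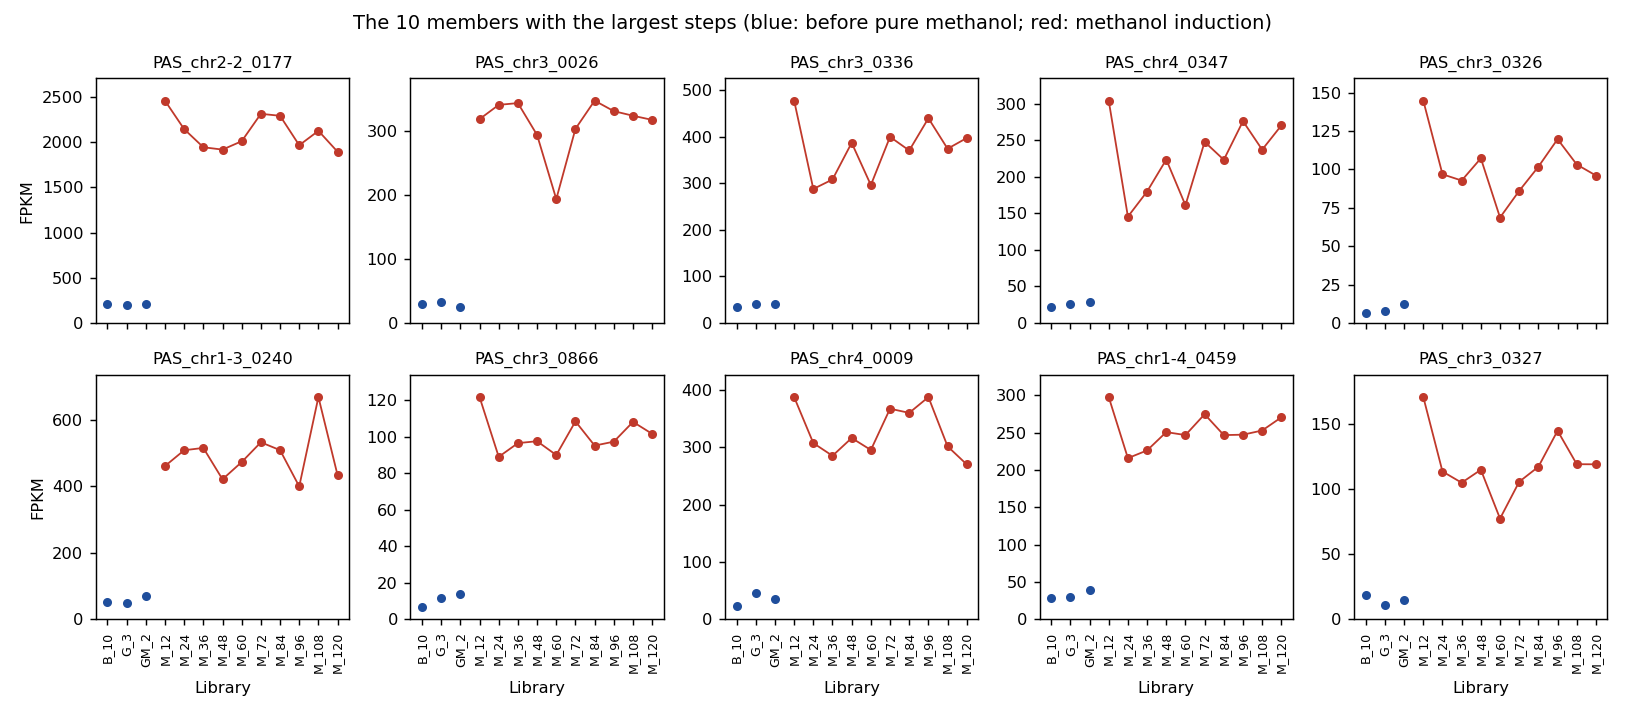
FPKM (vertical axes, linear, each starting at 0) of the 10 members with the largest steps in the 13 libraries (horizontal axes); blue points are B_10, G_3 and GM_2, red points joined by lines are the methanol libraries. All red points lie above all blue points in each panel, and the single low red point of PAS_chr3_0026 is M_60 at 194 FPKM.

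By level, 73 members had a methanol median of at least 100 FPKM. The median of the members' methanol medians, 98.6 FPKM, compares with 54.7 FPKM over all genes tested. The rule used the methanol median, so this difference follows in part from it. The share of all genes at 100 FPKM or more was not counted, so both values are a description. Besides PAS_chr2-2_0177, the highest were PAS_chr2-1_0642, PAS_chr1-4_0042, PAS_chr2-2_0236 and PAS_chr4_0842. PAS_chr1-4_0042 was the steadiest of these, with 313, 333 and 364 FPKM in B_10, G_3 and GM_2 and 1751 to 2077 FPKM in methanol induction, a step of 2.39 and an SD over the methanol libraries of 0.08.

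PAS_chr2-2_0236 was already uneven in the 3 earlier libraries, with 287 FPKM in B_10, 615 FPKM in G_3 and 486 FPKM in GM_2. In methanol induction it lay between 1094 and 2380 FPKM, lowest in M_48 and highest in M_120, and its step was 1.32. It is 1 of the 2 members with G_3 at least 1 above B_10. PAS_chr4_0842 had 263, 448 and 306 FPKM in the earlier libraries and 847 to 1282 FPKM later, a step of 1.11.

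At the limit of the rule, the 3 members just inside it were PAS_chr3_0771, PAS_chr4_0976 and PAS_chr3_0500, with steps of 1.00, 1.00 and 1.01. PAS_chr3_0771 had 172, 158 and 148 FPKM in B_10, G_3 and GM_2 and a methanol median of 346 FPKM. The 3 genes just outside, PAS_chr4_0577, PAS_chr4_0996 and PAS_chr2-1_0127, had steps of 1.00 after rounding, with methanol medians of 63.8, 135 and 110 FPKM. The values on the 2 sides of the limit are nearly the same. For the other limit, 9 members had a GM_2 difference of at least 0.9, with 0.97 as the largest, and 10 genes that met the step fell outside the window by up to 0.1.

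The second question is where the members stand among all genes with higher levels in methanol, including those the study named. Of the 5032 annotated genes tested, 446 had a methanol median at least 1 above both B_10 and G_3. In 165 of them GM_2 was within 1 of both and the methanol median at least 1 above GM_2 as well, and in 127 GM_2 was already at least 1 above both; the other 154 fell in neither class. The members are 153 of the 165, and the other 12 are genes of the study's tables.

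**Figure D3:**
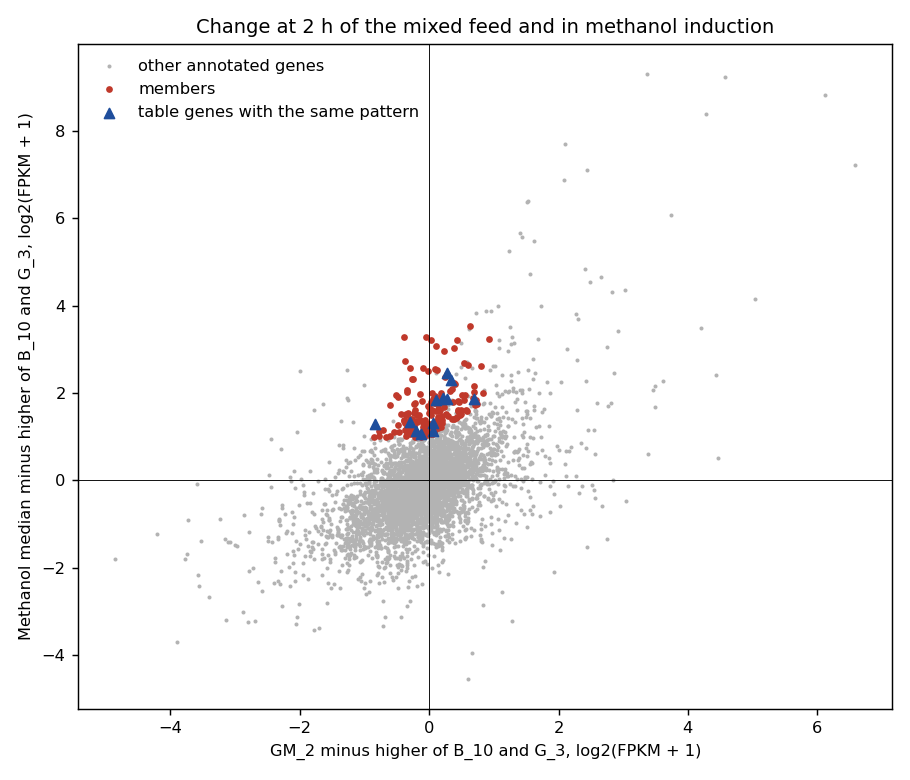
Each point is an annotated gene; the horizontal axis is GM_2 and the vertical axis the methanol median, each minus the higher of B_10 and G_3 on the log2(FPKM + 1) scale. The 153 members (red) and the 12 table genes with the same pattern (blue triangles) form the group close to 0 on the horizontal axis and at least 1 up, while genes already higher in GM_2 lie to the right.

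The 12 table genes come from pathways the study chose to discuss, so they show only which of its listed genes share the pattern. The functions of the unnamed members cannot be read from these 12 genes. Peroxins, proteins that build peroxisomes and import their enzymes, were among them, including PEX14, PEX20, PEX3 and PEX2. PEX14, a docking protein of the import machinery, had 85.0 FPKM in B_10, 125 FPKM in G_3 and 151 FPKM in GM_2, and 617 to 813 FPKM in methanol induction with a median of 689 FPKM, a step of 2.18. PEX2, a RING-domain subunit of the ligase that recycles import receptors, had a step of 1.17. PEX20, a co-receptor for matrix proteins, and PEX3, which peroxisomes need to take up membrane proteins, had steps of 1.74 and 1.67. Other peroxins, PEX5, PEX6, PEX11 and PEX13 among them, were already higher in GM_2, and PEX7 and PEX19 were not higher in methanol by this rule. The peroxins were thus split between both phases.

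Several genes of methanol oxidation and assimilation lay on the other side of the split. AOX1 (alcohol oxidase), DAS1 and DAS2 (dihydroxyacetone synthase), DAK, FDH (formate dehydrogenase), FLD (formaldehyde dehydrogenase) and FGH (S-formylglutathione hydrolase) were all already higher in GM_2, as was Mit1, a transcription activator of the AOX1 promoter. In the table that holds them, which also covers other carbon metabolism and oxidative stress, 20 of 66 genes were already higher in GM_2 and 6 had the members' pattern, among them FBPI, a fructose-bisphosphatase that the study counts with methanol assimilation, at a step of 1.59. Over all annotated genes tested these classes held 127 and 165 of 5032.

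The other named genes with the pattern came from the signalling and autophagy tables. ATG1, the kinase that starts autophagy, had 45.7, 59.7 and 33.0 FPKM in B_10, G_3 and GM_2 and a methanol median of 147 FPKM, a step of 1.29. ATG7, an activating enzyme of autophagosome formation, had a step of 1.33. These were 2 of the 10 genes named ATG that were tested, of which 7 were not higher in methanol by this rule. Of the signalling table, 4 of 18 genes had the pattern, namely Tec1 (1.25), Slt2 (1.14), Ypd1 (1.08) and Ste3 (1.06), known in Saccharomyces cerevisiae as a filamentation regulator, the cell wall integrity kinase, a phosphorelay protein and a pheromone receptor. None of the 20 genes of the third table had it.

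The third question is whether the members kept 1 level through methanol induction. This was tested with limma, which fitted a line over the hours to log2(FPKM + 1) in the 10 methanol libraries for all 5100 genes; changes are given for the 108 h from M_12 to M_120, and p-values were adjusted by Benjamini-Hochberg over all genes. The rule used only the median of these libraries, so the slope is a measure it did not use. Of the 153 members, 20 rose and 2 fell, which is 13.1% and 1.31%, beside 4.88% and 2.8% of all genes tested. At an unadjusted p of at most 0.05 the counts were 37 and 8, beside 13.9% and 11.5% of all genes tested.

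These counts depend on the scaling. With each library rescaled to the same sum without the 20 genes of the largest FPKM, 12 members rose and 4 fell, beside 2.57% and 7.31% of all genes tested, and rescaled to equal sums over all genes 13 rose and 7 fell, beside 2.65% and 12.5%. The 2 rescalings moved the median change of all genes from 0.01 to -0.15 and -0.18, and that of the members from 0.14 to -0.02 and -0.05. Without M_24, 10 members rose and none fell, without M_96, 12 rose and 1 fell, and without M_12, 30 rose and 2 fell. The number that fell was also 0 without M_108 and 1 without M_36, M_48, M_84 or M_120; the 153 members were kept the same in these fits.

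PAS_chr1-4_0681 rose most. It had 9.40 FPKM in B_10, 9.20 FPKM in G_3 and 5.08 FPKM in GM_2, and it went from 8.29 FPKM in M_12 to 46.6 FPKM in M_120, with every library above the one before it. Its M_12 value was no higher than in B_10 or G_3, and the fitted change was 2.45 (SE 0.14, limma adjusted p = 8.34e-06). The rise was also past the threshold after leaving out any 1 library.

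PAS_chr2-1_0270 had 2.95, 2.60 and 4.97 FPKM in B_10, G_3 and GM_2, and went from 5.88 FPKM in M_12 and 6.79 FPKM in M_24 to 20.4 FPKM in M_36 and 39.3 FPKM in M_120. Most of its step came between M_24 and M_36, and the fitted change was 2.09 (SE 0.38, limma adjusted p = 0.0101). PAS_chr3_0001 went from 9.67 FPKM in M_12 to 38.4 FPKM in M_120, above 4.11, 5.17 and 5.92 FPKM earlier, a fitted change of 1.65 (SE 0.16, limma adjusted p = 0.000893). Its M_120 value was well above the other 9 methanol libraries, which held at most 24.1 FPKM.

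PAS_chr4_0516 stood at 141, 135 and 146 FPKM in B_10, G_3 and GM_2, at 129 FPKM in M_12, and then climbed through 208 FPKM in M_24 to 505 FPKM in M_120. It was thus not yet higher at 12 h of methanol, and the fitted change was 1.64 (SE 0.30, limma adjusted p = 0.0100). PAS_chr3_0982 behaved differently, with 31.5 to 43.7 FPKM in the libraries up to M_60 and 60.3 to 73.1 FPKM from M_72 on, against 19.7, 20.7 and 20.8 FPKM in the 3 earlier libraries. The early and the late libraries did not overlap in this gene, and the fitted change was 1.23 (SE 0.25, limma adjusted p = 0.0170).

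Of the 20 members that rose, PAS_chr2-2_0236 and PAS_chr4_0842 were also among the 5 with the highest levels. Their fitted changes were 0.95 (SE 0.23, limma adjusted p = 0.0333) and 0.52 (SE 0.11, limma adjusted p = 0.0209). Without the library that mattered most, their adjusted p rose to 0.150 and 0.0961, and after rescaling without the 20 largest genes it was 0.0573 and 0.0614. The other 13 members that rose had fitted changes between 0.33 and 1.13.

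The 2 members that fell did so from a high first value. PAS_chr3_0337 had 25.7, 34.3 and 26.8 FPKM earlier, 319 FPKM in M_12, 230 FPKM in M_24 and 108 to 213 FPKM later, a fitted change of -1.18 (SE 0.27, limma adjusted p = 0.0264). All methanol libraries stayed above the earlier 3. PAS_chr1-4_0141 went from 59.2 FPKM in M_12 to 38.9 FPKM in M_120, above 21.6, 13 and 18.3 FPKM earlier, a fitted change of -0.42 (SE 0.11, limma adjusted p = 0.0432). Neither fall was past the threshold without M_12, where the adjusted p was 0.0550 and 0.101.

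**Figure D4:**
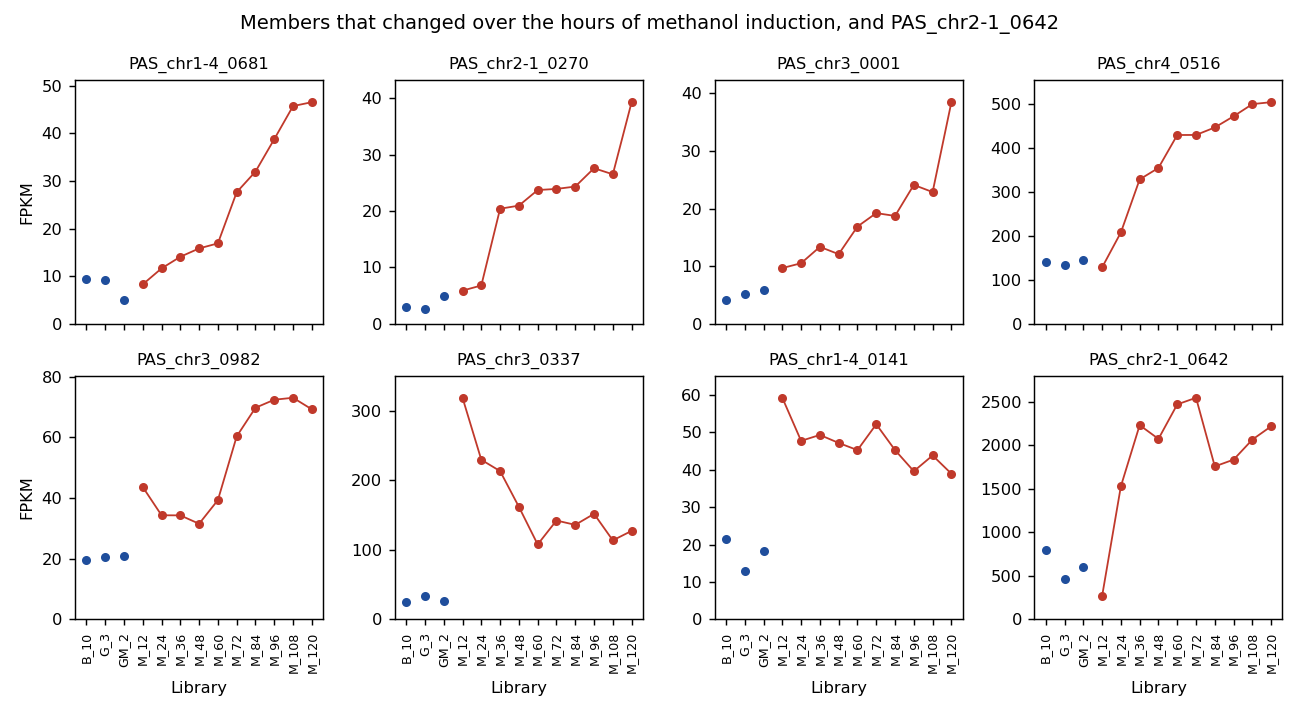
FPKM (vertical axes, linear, each starting at 0) in the 13 libraries (horizontal axes) for the 5 members with the largest fitted rise, the 2 members that fell (PAS_chr3_0337 and PAS_chr1-4_0141) and PAS_chr2-1_0642; blue points are B_10, G_3 and GM_2, red points joined by lines the methanol libraries. PAS_chr1-4_0681, PAS_chr4_0516 and PAS_chr2-1_0642 start in M_12 below their highest earlier library.

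A second test in limma compared the 5 libraries from M_72 to M_120 with the 5 from M_12 to M_60. Here 9 members were higher late and none was lower, beside 1.37% and 1% of all genes tested, and at an unadjusted p of at most 0.05 the counts were 40 and 1, beside 10.7% and 8.53%. PAS_chr3_0982 was 0.90 higher late (SE 0.09, limma adjusted p = 0.00118) and PAS_chr1-4_0681 1.46 higher (SE 0.19, limma adjusted p = 0.00704). Of the 9, only PAS_chr1-3_0301 was not also among those that rose over the hours. The count of members higher late was 17 without M_12, 3 without M_24, 4 without M_36, M_72 or M_120, 5 without M_84 and 2 without M_96 or M_108.

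For comparison, of the 127 genes already higher in GM_2, 9 rose over the hours and 3 fell, which is 7.09% and 2.36%; the difference from the members was not tested. Of the 12 table genes with the pattern, Ste3 rose, by 0.81 (SE 0.13, limma adjusted p = 0.00503), and no other passed the threshold. The peroxin PEX14 had a fitted change of -0.07 (SE 0.14, limma adjusted p = 0.801).

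The first methanol library, M_12, is where the members differed most among themselves, with quartiles of the step at 1.04 and 1.85. In 46 members (30.1%) it was the highest methanol library and in 32 (20.9%) the lowest, beside 24% and 26.3% of all genes tested. M_12 was at least 0.5 above the median of the later methanol libraries in 11 members (7.19%), beside 3.08% of all genes tested, and at least 0.5 below it in 21 (13.7%), beside 11.3%. At a distance of at least 1 the counts were 2 above (1.31%) and 9 below (5.88%), beside 0.353% and 3.61%. The share of members with a low M_12 was thus close to that of all genes at the smaller distance.

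In 5 members, PAS_chr2-1_0642, PAS_chr4_0516, PAS_chr2-1_0172, PAS_chr1-4_0681 and PAS_chr4_0468, the lowest methanol library was not above the highest of the earlier ones, and in each it was M_12. PAS_chr2-1_0642, at 793, 466 and 605 FPKM in B_10, G_3 and GM_2, dropped to 267 FPKM in M_12 and then stood at 1529 to 2546 FPKM. Set against the highest earlier library, this is a step of -1.57 in M_12, and M_12 was below all 3 earlier libraries. PAS_chr2-1_0172 had 6.31, 5.92 and 8.64 FPKM earlier, 7.04 FPKM in M_12 and 18.7 to 39.4 FPKM later. PAS_chr4_0468, the weakest of them, had 4.59, 3.75 and 3.53 FPKM earlier, 4.23 FPKM in M_12 and 7.23 to 13 FPKM later. None of the 5 was thus above its highest earlier library at 12 h of methanol, though some were above 1 or 2 of the 3 earlier libraries.

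The library M_60 was the lowest methanol library in 51 members (33.3%) and the highest in 4 (2.61%), beside 18.6% and 17.2% of all genes tested. M_24 was the lowest in 26 members, beside 9.29% of all genes tested, and M_120 the highest in 40, beside 20.3%. The depth of M_60 was 32793372 fragments, within the range of the other libraries. Of the 127 genes already higher in GM_2, M_60 was the lowest methanol library in 39. The members' SD over the methanol libraries had a median of 0.20 on the log2 scale, against 0.15 over all genes tested.

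**Figure D5:**
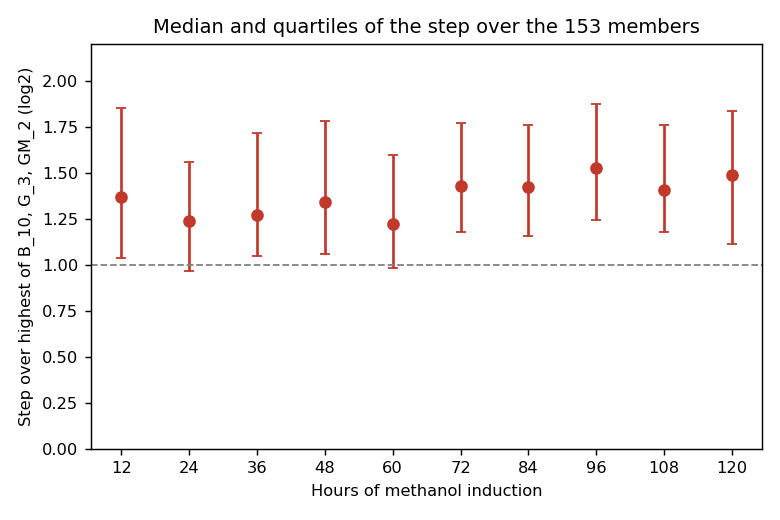
Median (points) and quartiles (bars) over the 153 members of the step in each methanol library, as log2(FPKM + 1) minus the highest of B_10, G_3 and GM_2, against the hours of methanol induction; the dashed line marks 1. The medians run from 1.22 in M_60 to 1.53 in M_96, and the bars show the spread over genes, not an error between replicates.

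The last measure, position, was not used by the rule. Chromosome and gene order were taken from the RefSeq annotation of the GS115 assembly ASM2700v1, to which all 153 members matched by locus tag; the build of the deposited table is not named, so no coordinates are given. Chromosomes 1, 2, 3 and 4 held 52, 28, 32 and 41 members, which is 34.0%, 18.3%, 20.9% and 26.8%, beside 30.5%, 26.4%, 23.8% and 19.3% of all annotated genes tested. Members were thus relatively more frequent on chromosome 4 and less so on chromosome 2; these shares were not tested.

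Neighbouring members were found in 15 pairs that hold 27 members, or 17.6%. Of the 4879 annotated genes tested outside the set, 267 (5.47%) had a member next to them. Of the 446 genes higher in methanol induction than in B_10 and G_3, 159 (35.7%) had another of the 446 next to them. The 446 are a larger set that includes the members, so their share cannot be compared directly with that of the members. The differences between these shares were not tested. The gene models of none of the 15 pairs overlap in this annotation, but whether fragments were counted by strand is not stated, so reads running past the end of a gene into its neighbour cannot be told apart. Runs of 3 members each were found 3 times, namely PAS_chr3_0024 to PAS_chr3_0026, PAS_chr4_0009 to PAS_chr4_0011 and PAS_chr4_0495 to PAS_chr4_0497.

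Within the first run the steps were 1.81, 1.31 and 3.27. PAS_chr3_0024 had 16.3, 13.6 and 17.0 FPKM in B_10, G_3 and GM_2 and 34.3 to 89.4 FPKM in methanol induction, and it rose over the hours by 1.13 (SE 0.20, limma adjusted p = 0.00821). PAS_chr3_0025 had 10.2, 12.2 and 18.1 FPKM and then 32.9 to 57.2 FPKM. The third gene of the run, PAS_chr3_0026, is described above. The methanol medians of the 3 neighbours were 62.2, 46.4 and 322 FPKM. The first was the only one past the threshold over the hours; the second had a fitted change of 0.39 (SE 0.16, limma adjusted p = 0.151), and the difference between them was not tested.

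In the run on chromosome 4 that starts with PAS_chr4_0009 the steps were 2.73, 1.71 and 2.16. PAS_chr4_0009 had 24.1, 46.0 and 35.2 FPKM earlier and 270 to 387 FPKM in methanol induction. PAS_chr4_0010 had 16.3, 33.0 and 32.7 FPKM earlier and 89.1 to 132 FPKM later, and PAS_chr4_0011 had 6.20, 6.14 and 9.43 FPKM earlier and 34.7 to 65.0 FPKM later. The last of these rose over the hours by 0.77 (SE 0.13, limma adjusted p = 0.00816), and the other 2 did not pass the threshold. The levels thus fell along the run while the steps did not follow that order.

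The third run, PAS_chr4_0495 to PAS_chr4_0497, had steps of 2.58, 1.33 and 1.01. PAS_chr4_0495 had 22.1, 23.6 and 22.1 FPKM earlier and 123 to 166 FPKM in methanol induction, and PAS_chr4_0497, with 35.6, 42.9 and 24.6 FPKM earlier and 60.3 to 98.7 FPKM later, only just met the rule. The pair PAS_chr3_0326 and PAS_chr3_0327 had similar levels, with methanol medians of 99.3 and 116 FPKM and steps of 2.90 and 2.58. In both, M_12 was the highest methanol library and M_60 the lowest.

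PAS_chr3_0336 and PAS_chr3_0337 are also neighbours, and both peaked in M_12. The first held 288 to 477 FPKM through methanol induction, while the second fell over the hours as given above. Their fitted changes were not compared by a test of the difference.

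There were 12 members (7.84%) next to a gene of the study's tables, beside 233 of the 4751 annotated genes tested outside the set and the tables (4.90%); the difference was not tested. Of these neighbours, FGH, PMP20, PMP34 and PEX3 belong to methanol use or peroxisomes. PAS_chr3_0866, with 1 of the 10 largest steps, is next to FGH, the hydrolase of formaldehyde oxidation, which in turn is followed by FBPI, itself 1 of the 12 table genes with the pattern. FGH was at 554 FPKM in GM_2, 2.41 above G_3 on the log2 scale, and had a methanol median of 2994 FPKM. PAS_chr1-4_0548 is next to PMP20, a peroxisomal peroxiredoxin that was 3.37 above G_3 in GM_2 and reached a methanol median of 17846 FPKM. The paper, in contrast, reports no significant upregulation of PMP20 in this culture, and the reason for the difference was not tested. PAS_chr1-4_0548 had itself 35.5, 35.6 and 68.5 FPKM in B_10, G_3 and GM_2. In methanol induction it had 290 to 384 FPKM, a step of 2.30.

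PAS_chr3_0098 is next to PMP34, listed by the study as a peroxisomal transporter, which was 1.41 above G_3 in GM_2. It had 86.1, 83.5 and 123 FPKM earlier and 298 to 396 FPKM in methanol induction, a step of 1.44. PAS_chr3_1072 is next to PEX3, and here both genes have the same pattern, with steps of 1.16 and 1.67. It had 79.0, 72.7 and 108 FPKM earlier and 218 to 297 FPKM later. By the rule, which keeps members within 1 of B_10 and G_3 in GM_2, the named neighbours of 3 of these 4 members differ from them in GM_2, so nothing is read from that contrast.

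The other 8 of the 12 lie next to genes of autophagy, proteolysis, signalling, regulation or metabolism. PAS_chr2-1_0642 is next to ATG1, which has the pattern with a step of 1.29, and PAS_chr1-1_0227 is next to PRB1, a vacuolar protease that was already higher in GM_2. PAS_chr4_0204 had 30.3, 33.6 and 34.5 FPKM earlier and 125 to 179 FPKM in methanol induction, a step of 1.97, beside Prm1, a regulator of methanol genes that had 63.4 FPKM in GM_2 and a methanol median of 56.7 FPKM, 0.45 above B_10 and -0.16 relative to its highest earlier library on the log2 scale. The neighbours of the other 5, ATG22, Wsc, FPK1, ERG20 and SCS1, did not have the pattern, and the methanol median of SCS1 was -1.94 relative to B_10 on the log2 scale.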

How the data were processed

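The authors sequenced paired-end RNA libraries, aligned them with HISAT2 2.0.5 per the labels, and deposited 1 FPKM value per gene and library, already scaled to library size and gene length; how fragments were counted, whether by strand, and the genome build are not given in the sources read for this work. Depth was recovered from low FPKM values, 86.4 to 98.0% of which were whole multiples of 1 fragment within 0.02. Values were analysed as log2(FPKM + 1) in Python 3.11.15 (numpy 2.4.6, pandas 2.3.3, matplotlib 3.10.9), without a filter beyond a mean of 1 FPKM. For methanol induction, R 4.3.3 with limma 3.58.1 and its empirical Bayes trend was fitted to all 5100 genes and tested two-sided, with Benjamini-Hochberg adjustment and a threshold of 0.05. Both fits and the rule were also run on simulated data, with results that are not reported here. The p-values measure scatter in 1 culture, around a line for the hours and around the group means for late against early. The rule for names covered the 10 largest steps, the 5 highest levels, the 5 largest changes each way, members at the limit and neighbours, with few identifiers; as no member has a name, more identifiers were given after their values were seen. Groups by gene function were planned but could not be formed for lack of descriptions. The members and lists were chosen with earlier results of these data known. The alternatives changed the pseudocount, filter, limits, scaling, limma settings and libraries used. A few results of the series are not reported here.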

Additional observations from a re-analysis of the deposited data

Results flagged for a closer look

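In 4 of 56 named members, 1 methanol library stood apart from the other 9, by a gap whose ratio to the whole range on the log2 scale exceeded Dixon's critical value. In 3 of them it was M_12. The ratio was 0.774 in PAS_chr2-1_0642, where M_12 was low with 267 FPKM against 1529 to 2546 FPKM, and 0.553 in PAS_chr2-1_0172, where M_12 was low with 7.04 FPKM against 18.7 to 39.4 FPKM. In PAS_chr1-1_0394 it was 0.611, with M_12 high at 188 FPKM against 114 to 139 FPKM. In PAS_chr3_0026 it was 0.713, with M_60 low at 194 FPKM against 295 to 348 FPKM. Chance gives such a gap in about 1 in 20 groups; it was found in 19 of the 153 members, beside 11.4% of all genes tested.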

How the results depend on the processing

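The number of members was 56 with a step of at least 1.5, 96 with GM_2 within 0.5 and 70 where each methanol library had to pass. It ranged from 143 to 159 when 1 methanol library was left out, and was 193 without B_10 in the rule, an alternative chosen after seeing the data that kept all 153. The members that rose and fell over the hours numbered 12 and 4 after rescaling without the 20 largest genes and 13 and 7 after rescaling to equal sums. When 1 library was left out, those that changed over the hours ranged from 10 to 32, those that rose from 10 to 30 and those that fell from 0 to 2, while those that differed between late and early ranged from 2 to 17. No named step turned its direction with a pseudocount of 0.1 or 5 or after rescaling without the 20 largest genes, the alternatives run for it. Since the rule set these steps to at least 1, a turn was unlikely. In 12 of these checks the step moved by at least the gene's SD over the methanol libraries, and in 156 by less. No called change over the hours turned under the alternatives run for the trend. Each change was called in mostly the same libraries, so a turn was unlikely here too. In 77 of the checks on these changes, the change was no longer past the threshold, and in 341 it was. The line fitted from M_24 on and the fit without M_12 are the same fit and were both counted. Each held 18 changes past the threshold and 4 that were not. The cause of the differences between the alternatives was not tested. No paired analysis was possible because each glycerol condition has 1 library. With 1 culture and no replicate, neither the steps nor the order of libraries can be set against variation between fermentations.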
